A study of Mus musculus with 3 samples.

Results

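The actin genes of the mouse and a small group of genes regulated by serum response factor (SRF) were examined in c2c12 cells. The members were the rows of the count files with the symbols Acta1, Actc1, Acta2, Actg2, Actb, Actg1, Tagln, Cnn1, Vcl and Srf, which are 10 of 23238 gene symbols. Each symbol stood on 1 line of each file, and all 10 reached a CPM of 1 (counts scaled to a common library total) in 1 library or more. c2c12 is an established mouse myoblast line whose cells fuse into myotubes when serum is withdrawn. Cells were kept for 2 days in myogenic induction medium with 2% horse serum on a tissue culture plate (TCP), on a hydrogel of 15% methacrylated gelatin (GelMA), or on the same hydrogel with 1% PSS, the sulfonated polymer poly(sodium-4-styrenesulfonate) (GelMA-PSS). All 3 groups shared the cell line, the medium and the time. Total RNA was isolated, and a single library was sequenced for each substrate. With 1 library per substrate there is no replicate check, so no p-value is given and "higher" and "lower" below describe these libraries.

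Actin is the monomer of the thin filament of muscle and of the cytoskeletal filaments of every cell. Vertebrates use separate genes for the sarcomeric forms, the smooth muscle forms and the cytoplasmic forms, and differentiating myoblasts are known to exchange cytoplasmic for sarcomeric actin. SRF binds a short element called the CArG box. Of its coactivators in the myocardin family, Mrtfa and Mrtfb are held back by free actin monomers. This links transcription of actin and actin-binding genes to the state of the filaments.

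The 6 actin genes differ in length and sequence at the beginning of the coding sequence, and these stretches are shown to make clear how the isoforms can be told apart. They were read from GENCODE vM21 on GRCm38, each lies within 1 coding exon, and each runs 5′ to 3′ on the minus strand from the start codon to a shared gacaa(t or c)ggctc. Capitals mark the codons between the start codon and that shared stretch.
Acta1, chr8:123893651-123893697: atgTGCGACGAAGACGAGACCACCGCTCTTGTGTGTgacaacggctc
Actc1, chr2:114051985-114052031: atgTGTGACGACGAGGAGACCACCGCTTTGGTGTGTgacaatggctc
Acta2, chr19:34252507-34252553: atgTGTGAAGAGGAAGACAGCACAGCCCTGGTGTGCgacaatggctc
Actg2, chr6:83527398-83527441: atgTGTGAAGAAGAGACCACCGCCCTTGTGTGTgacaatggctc
Actb, chr5:142905646-142905686: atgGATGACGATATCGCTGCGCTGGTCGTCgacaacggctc
Actg1, chr11:120348051-120348091: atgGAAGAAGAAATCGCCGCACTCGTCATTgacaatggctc

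The stretch of Acta1 differed from that of Actc1 at 6 of 47 bases and from that of Acta2 at 11. Actb and Actg1 differed from each other at 9 of 41 bases, and their stretches were 6 bases shorter than that of Acta1, while that of Actg2 was 3 bases shorter. Over the last 1098 coding bases, from the shared stretch onward, the isoforms were 82.4% to 89.1% identical, with the highest value between Actb and Actg1. The longest identical run was 77 bases, between Acta1 and Actb, and no stretch as long as a sequencing read was shared between any of the 10 genes. Actg1 nevertheless shared 50.9% of its read-length stretches with other annotated genes, most of them with Gm12715, so its counts are uncertain to the extent that such reads were split. For Actb this share was 1.04%, and for the 4 other actin genes it was 0%. On the opposite strand, Gm20388 spans Acta1, A530058N18Rik spans Actc1 and Gm26904 spans Srf, but their transcripts shared no read-length stretch with these members.

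Promoter windows of RefSeq (GRCm38.p6), from 250 bases before to 50 bases after the gene start, were found for 7 of the 10 genes and not for Actb, Actg2 and Tagln. The CArG box was searched as CC, then 6 bases that are each A or T, then GG, a form that reads alike on both strands. Of the 32851 windows in the table, 535 (1.63%) held such a box, and 5 of the 7 members did. The members were picked by name as actin genes, SRF targets and Srf itself, so this is no test of enrichment. The 10-base boxes are shown in capitals with 10 bases on each side, because they are the element that SRF is known to bind.
Acta1, chr8:123894829-123894858, minus strand: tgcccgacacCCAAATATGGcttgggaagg
Actc1, chr2:114052903-114052932, minus strand: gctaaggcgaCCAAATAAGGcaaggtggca
Actg1, chr11:120348566-120348595, minus strand: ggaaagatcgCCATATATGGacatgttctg
Vcl, chr14:20929161-20929190, plus strand: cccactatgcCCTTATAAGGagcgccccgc
Srf, chr17:46556225-46556254, minus strand: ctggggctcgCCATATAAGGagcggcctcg
Srf, chr17:46556205-46556234, minus strand: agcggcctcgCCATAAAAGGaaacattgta

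The box began 73 bases before the RefSeq start in Acta1, 47 in Actc1, 90 in Actg1 and 227 in Vcl. The box of Actc1 lies within the GENCODE span of that gene given below, which begins further upstream than the RefSeq start. Srf itself had a pair of boxes, 82 and 62 bases before its start, whose flanks overlap as shown. Acta2 had no box of this form but held 2 with a single central G or C, which 8.5% of all windows have at least once, and in Cnn1 neither form was found. The genes with a box included members that were lower in GelMA-PSS than in TCP (Acta1, Actc1) and a member that was higher (Actg1), as given below. A match describes these letters and does not show binding.

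The files summed to between 87071144 and 192171443 counts per library, and GelMA-PSS was the deepest. Counts were scaled to CPM with TMM factors, which set the libraries against each other on the genes with moderate ratios, and ratios between libraries were taken as log2(CPM + 1). This scale understates the change of low genes. The 13169 symbols that reached 1 CPM in any library are called tested genes below. A gene was counted as different when its log2 ratio passed 2-fold. Intervals are exact 95% Poisson or binomial intervals, cover counting error only, and are too narrow if both mates of a pair were counted. The labels name a SMARTER kit and the study's methods a TruSeq kit, so the way the libraries were made is not settled. The methods describe strand-specific reads.

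In GelMA-PSS the log2 ratio fell with transcript length over the whole transcriptome. Against GelMA the median was 0.36 for the tested genes around 1494 bases, 0.24 around 1931 bases and -0.30 around 5117 bases, and the members lie between 1333 bases (Actg2) and 5267 bases (Vcl). Values are therefore also given after a loess correction for transcript length and GC content, called corrected log2 ratios. Shares and ratios of different actin genes are given per transcript base unless counts are named. TPM is counts per transcript base scaled to a common total and was computed here without factors. Summed CPM and the CPM of marker genes are not divided by length, so long transcripts weigh more in them.

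The main difference among the members was one of composition. Sarcomeric actin made up less, and cytoplasmic actin more, of the actin transcripts on the hydrogels than on TCP, and the shift was larger in GelMA-PSS than in GelMA. Per transcript base, Acta1 and Actc1 together took 69.0% of the 6 actin genes in TCP, 63.8% in GelMA and 57.1% in GelMA-PSS. Actb and Actg1 together took 12.9% in TCP, 20.3% in GelMA and 26.3% in GelMA-PSS. Between the hydrogels more of this rise lay in Actg1 (11.1% in GelMA, 15.6% in GelMA-PSS) than in Actb (9.15% and 10.6%). The counts of Actg1 are uncertain, as given above. Acta2 and Actg2 together moved less, from 18.1% in TCP to 15.9% in GelMA and 16.7% in GelMA-PSS. The ratio of sarcomeric to cytoplasmic actin per transcript base was 5.36 in TCP, 3.15 in GelMA and 2.17 in GelMA-PSS. In plain counts the cytoplasmic share was 15.4% (95% exact binomial interval 15.3 to 15.4) in TCP, 23.9% (23.8 to 24.0) in GelMA and 30.4% (30.3 to 30.4) in GelMA-PSS. These intervals do not overlap, but they hold no variation between cultures.

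**Figure D1:**
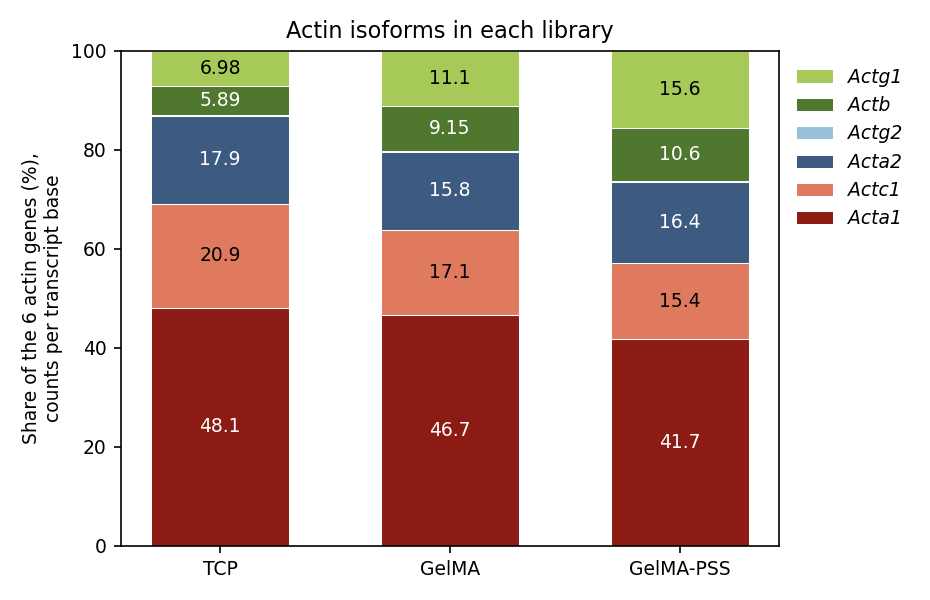
Stacked bars give the share (%) of each of the 6 actin genes among all actin counts per transcript base in each library (x axis, substrate), with 1 library per bar. Acta1 and Actc1 take 69.0% of the TCP bar and 57.1% of the GelMA-PSS bar, and Actb and Actg1 take 12.9% and 26.3%. Actg2, at 0.147% to 0.258%, is too thin to see.

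The total depended on the unit. The 6 actin genes held 1.47% of all counts in TCP, 1.37% in GelMA and 1.33% in GelMA-PSS, and their summed CPM was 14430, 13090 and 14070 in the same order. Per transcript base they summed to 17850 TPM in TCP, 16550 in GelMA and 12610 in GelMA-PSS, on a scale where the median log2 ratio of all genes was -0.32 for GelMA-PSS against TCP. In RNA from whole cultures, fewer cells of a type and less RNA per cell cannot be told apart. The summed CPM of 7 myotube markers (Myog, Ckm, Des, Mymk, Myh3, Tnnt3, Ttn) was 23380 in TCP, 16980 in GelMA and 11920 in GelMA-PSS, and 4 of the 7 were below both controls in GelMA-PSS. Between the hydrogels the lower sum came mostly from Myh3 (6355 CPM in GelMA, 3037 in GelMA-PSS) and the very long Ttn (2808 and 522). Des, Tnnt3 and Myog were higher in GelMA-PSS as measured. After the correction the log2 ratio of Tnnt3 between the hydrogels turned from 0.126 to -0.339, and that of Des was 0.189. The summed CPM of 4 markers of dividing cells (Mki67, Top2a, Ccnb1, Cdk1) was 171 in TCP, 262 in GelMA and 284 in GelMA-PSS. These 4 disagreed between the hydrogels, on levels that were not corrected for transcript length. Ccnb1 (29.3 CPM in GelMA, 41.8 in GelMA-PSS) and Cdk1 (44.5 and 88.9) were higher in GelMA-PSS. Mki67 (74.7 and 42.9) was lower there, and Top2a (113.5 and 110.0) was nearly even. All of these markers were above 3 counts in each library, and their part in the actin shift was not tested. Myog, a transcription factor that marks differentiating myoblasts, was at 1100 CPM in TCP, 895 in GelMA and 1037 in GelMA-PSS, so the labelled cell type was borne out in each library.

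Acta1 encodes the α-actin of adult skeletal muscle and lies at chr8:123891769-123894751 with 7 exons. Its level was 6192 CPM (6178 to 6206) in TCP, 5379 (5364 to 5394) in GelMA and 5060 (5049 to 5070) in GelMA-PSS. By TPM it was the 4th most abundant gene in TCP, the 7th in GelMA and the 15th in GelMA-PSS. Acta1 was thus highest in TCP and lowest in GelMA-PSS, with small steps between the libraries. The log2 ratio was -0.20 for GelMA against TCP, -0.09 for GelMA-PSS against GelMA and -0.29 for GelMA-PSS against TCP. After the correction the step between the hydrogels was larger, at -0.38, and 12.4% of the tested genes had a lower corrected value.

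Actc1 encodes the cardiac α-actin, which embryonic skeletal muscle and cultured myotubes also express, and lies at chr2:114047282-114053548 with 7 exons. It had 2747 CPM in TCP, 2009 in GelMA and 1904 in GelMA-PSS. Its order was the same as that of Acta1, but more of the difference lay between TCP and the hydrogels. The log2 ratio of GelMA against TCP was -0.45, below which only 4.42% of the tested genes lay, and that of GelMA-PSS against TCP was -0.53. Between the hydrogels it was -0.08, or -0.42 after the correction. Per transcript base there were 2.30 Acta1 per Actc1 in TCP, 2.73 in GelMA and 2.71 in GelMA-PSS. Of 5 further markers of cardiac muscle, Myl7 was at 0 counts in all 3 libraries, and the summed level was 459, 146 and 51.1 CPM, nearly all of it from Myh6. The part of these genes in the level of Actc1 was not tested.

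**Figure D2:**
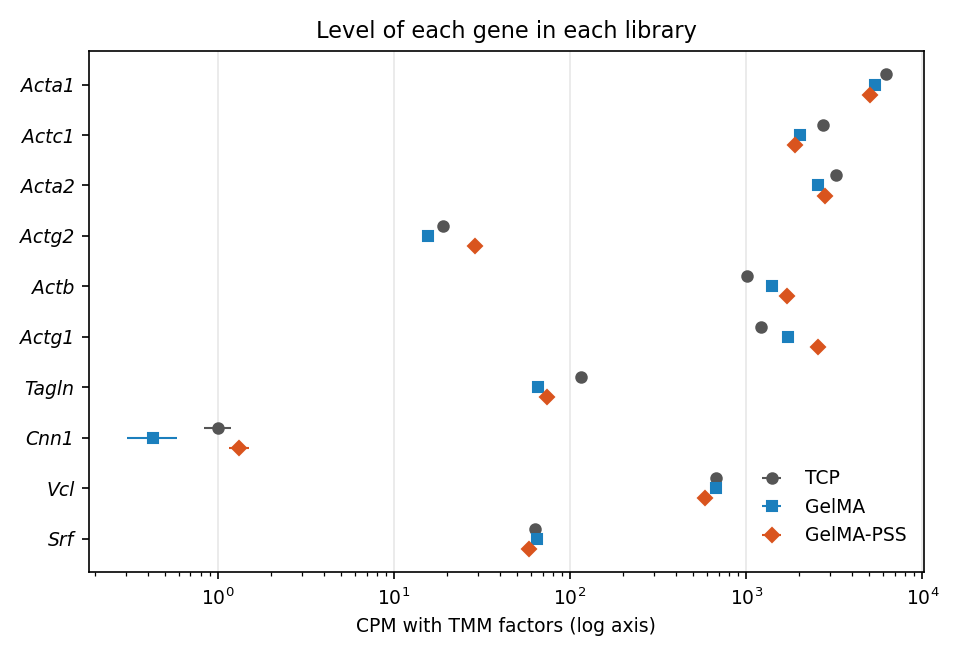
The level of each of the 10 genes (rows) in each library is given in CPM with TMM factors on a log axis, with exact 95% Poisson intervals as horizontal bars, which are visible for Cnn1 only. Acta1 and Actc1 are highest in TCP, Actb and Actg1 are highest in GelMA-PSS, and Cnn1 lies near 1 CPM.

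Acta2 encodes the α-actin of vascular smooth muscle, which is known to be expressed transiently in myoblasts, and lies at chr19:34241090-34255590 with 9 exons. It had 3248 CPM in TCP, 2556 in GelMA and 2803 in GelMA-PSS, so it was highest in TCP and lowest in GelMA. The log2 ratio of GelMA against TCP was -0.35 and that of GelMA-PSS against TCP was -0.21, or -0.37 after the correction. Between the hydrogels the sign depended on the processing, with 0.13 as measured, -0.10 after the correction and -0.34 by TPM. Per transcript base Acta2 stood at 3200 TPM in TCP, which is below Actc1 at 3738 TPM, and at 2069 TPM in GelMA-PSS, which is above Actc1 at 1941 TPM.

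Myh11 and Myocd, genes that define smooth muscle, were low beside the high level of Acta2. Smtn (222.8 CPM in TCP) and Synpo2 (133.6), on the same list of markers, were not low. Myh11, the smooth muscle myosin heavy chain, had 0.181 CPM in TCP, 0.319 in GelMA and 0.0938 in GelMA-PSS. Myocd, the coactivator of SRF in smooth and cardiac muscle, had 0.181, 0.0990 and 0.105 CPM. Over 8 smooth muscle markers the summed level was 369 CPM in TCP, 316 in GelMA and 282 in GelMA-PSS, mostly from Smtn and Synpo2, and 4 of the 8 reached a CPM of 1.

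Actg2 encodes the γ-actin of enteric smooth muscle and lies at chr6:83512905-83536265 with 9 exons. It was the rarest actin, with 18.9 CPM (18.1 to 19.7) in TCP, 15.6 (14.8 to 16.4) in GelMA and 28.9 (28.1 to 29.7) in GelMA-PSS. It stood apart from Acta2 in being highest in GelMA-PSS. The ratio of GelMA-PSS to GelMA was 1.85-fold (1.75 to 1.97), a log2 ratio of 0.85, and 96.4% of the tested genes had a lower value. After the correction it was 0.47. Per transcript base there were 113 Acta2 per Actg2 in TCP, 108 in GelMA and 63.6 in GelMA-PSS.

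Actb, the cytoplasmic β-actin, lies at chr5:142903115-142906754 with 6 exons and had 1006 CPM in TCP, 1399 in GelMA and 1715 in GelMA-PSS. The log2 ratio was 0.48 for GelMA against TCP and 0.77 for GelMA-PSS against TCP, and 94.2% and 92.5% of the tested genes had lower values. Actb was thus higher on both hydrogels than on TCP. Between the hydrogels the log2 ratio was 0.29 as measured, 0.05 after the correction and -0.18 by TPM. Actb is often used as the reference gene in qPCR, and per transcript base the ratio of Acta1 to Actb was 8.17 in TCP, 5.10 in GelMA and 3.92 in GelMA-PSS. On that reference the log2 ratio of Acta1 for GelMA-PSS against TCP was -1.06, where it was -0.29 with TMM factors.

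Actg1, the cytoplasmic γ-actin, lies at chr11:120345690-120348542 with 6 exons and had 1214 CPM (1207 to 1220) in TCP, 1728 (1719 to 1736) in GelMA and 2562 (2555 to 2570) in GelMA-PSS. The libraries were ordered TCP, GelMA, GelMA-PSS from low to high, with gaps far wider than the counting error. The ratio of GelMA-PSS to TCP was 2.11-fold (2.10 to 2.12), a log2 ratio of 1.08, and 97.2% of the tested genes had a lower value. The corrected log2 ratio was 0.91. For GelMA-PSS against GelMA it was 0.57, or 0.36 after the correction, and for GelMA against TCP it was 0.51. Per transcript base there were 1.19 Actg1 per Actb in TCP, 1.21 in GelMA and 1.47 in GelMA-PSS. As 50.9% of its read-length stretches was shared with other genes, its level is uncertain, and the part of reads from them was not tested.

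Actg1 was the only one of the 10 genes past 2-fold on the log2(CPM + 1) scale, before the correction. In the comparison of GelMA-PSS with TCP, 1 of the 10 members passed, on the high side, against 6.85% of the tested genes (3.72% higher, 3.13% lower). For GelMA-PSS against GelMA 0 of 10 passed, against 4.1%, and for GelMA against TCP 0 of 10, against 1.0%. In GelMA-PSS, 4 members (Actg2, Actb, Actg1, Cnn1) were higher than in both controls and 4 (Acta1, Actc1, Vcl, Srf) were lower, where 45.3% and 39.3% of the tested genes did so. With 10 genes, these counts lie near the background and show nothing particular to the group. For GelMA-PSS against GelMA their median log2 ratio was 0.15 (all tested genes, 0.03). Against TCP it was -0.16 (0.04) in GelMA-PSS and -0.23 (-0.01) in GelMA. After the correction these medians of the members were 0.0022, 0.01 and -0.18, so the second changed sign and the first was close to 0. The comparisons share libraries and are not independent of each other.

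**Figure D3:**
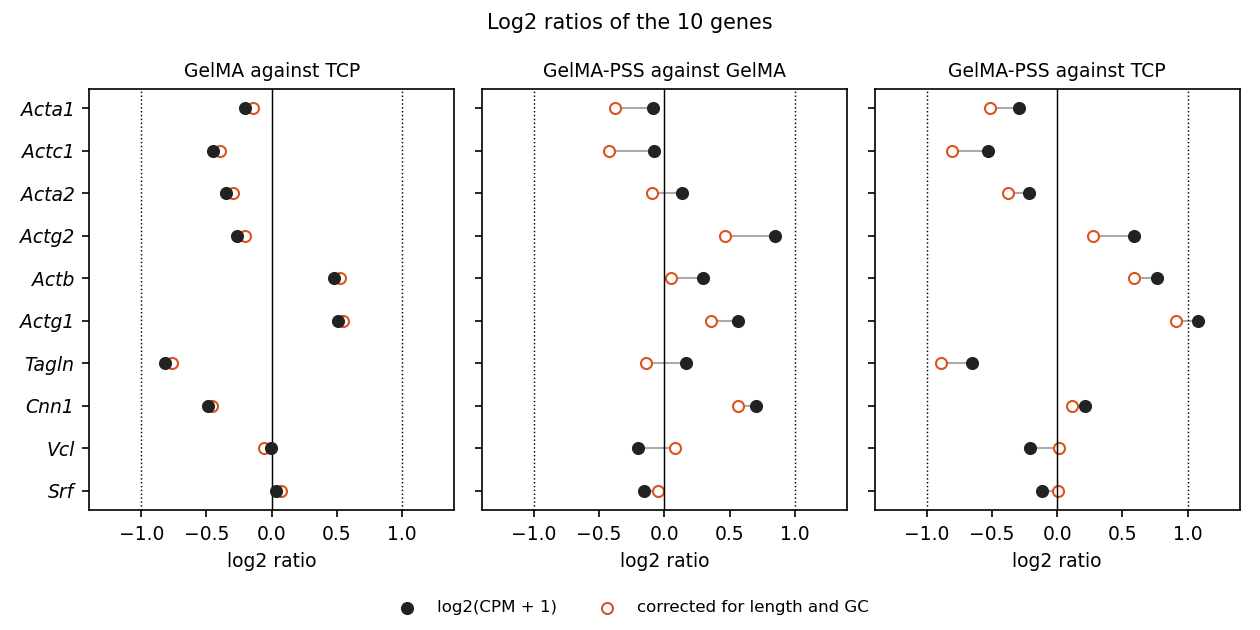
Filled points give the log2 ratio of CPM + 1 and open points the ratio corrected for transcript length and GC content, for each gene (rows) in the 3 comparisons (panels). Dotted lines mark 2-fold. Actb and Actg1 lie to the right of 0 against TCP in both panels, Acta1, Actc1, Acta2 and Tagln to the left, and Actg1 is past the line for GelMA-PSS against TCP before the correction.

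Tagln encodes transgelin (SM22), an actin-bundling protein and a classical SRF target, and lies at chr9:45929619-45936058 with 5 exons. It had 116 CPM (114 to 118) in TCP, 65.5 (63.8 to 67.2) in GelMA and 73.6 (72.3 to 74.8) in GelMA-PSS. TCP was high and both hydrogels were low. The log2 ratio of GelMA against TCP was -0.81, the lowest uncorrected value of any member, and 0.661% of the tested genes had a lower value. For GelMA-PSS against TCP it was -0.65, or -0.89 after the correction. Between the hydrogels it was 0.17 as measured and -0.14 after the correction. Of its read-length stretches 32.9% were shared, almost all with the antisense gene Gm48529, and the counting is not stated to use strand, so reads of the 2 cannot be told apart.

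Cnn1 encodes calponin, an actin-binding protein of smooth muscle, and lies at chr9:22099216-22109630 with 7 exons. It was barely expressed, with 122 counts in TCP, 39 in GelMA and 239 in GelMA-PSS, or 1.00 CPM (0.832 to 1.20), 0.429 (0.305 to 0.587) and 1.32 (1.16 to 1.498). GelMA was low and GelMA-PSS was high. Without a pseudocount the ratio of GelMA-PSS to GelMA was 3.07-fold (2.19 to 4.43) and that of GelMA to TCP was 0.428-fold (0.291 to 0.619). On the log2(CPM + 1) scale these became 0.70 and -0.49, below the 2-fold limit, because the pseudocount is as large as the levels themselves.

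Vcl encodes vinculin, which couples actin filaments to integrin and cadherin adhesions, and lies at chr14:20929398-21033676 with 21 exons in the transcript used. It had 675 CPM in TCP, 672 in GelMA and 583 in GelMA-PSS. TCP and GelMA were nearly equal, with a ratio of 0.996-fold (0.985 to 1.01). In GelMA-PSS its log2 ratio to GelMA was -0.20 and to TCP -0.21, and after the correction it was 0.08 and 0.01. Vcl is the longest of the members, and its ratio lay close to the median of genes of its length. Of its read-length stretches 38.6% were shared with Ap3m1 on the opposite strand, whose reads likewise cannot be told apart and which had 7110, 5279 and 11986 counts in TCP, GelMA and GelMA-PSS.

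**Figure D4:**
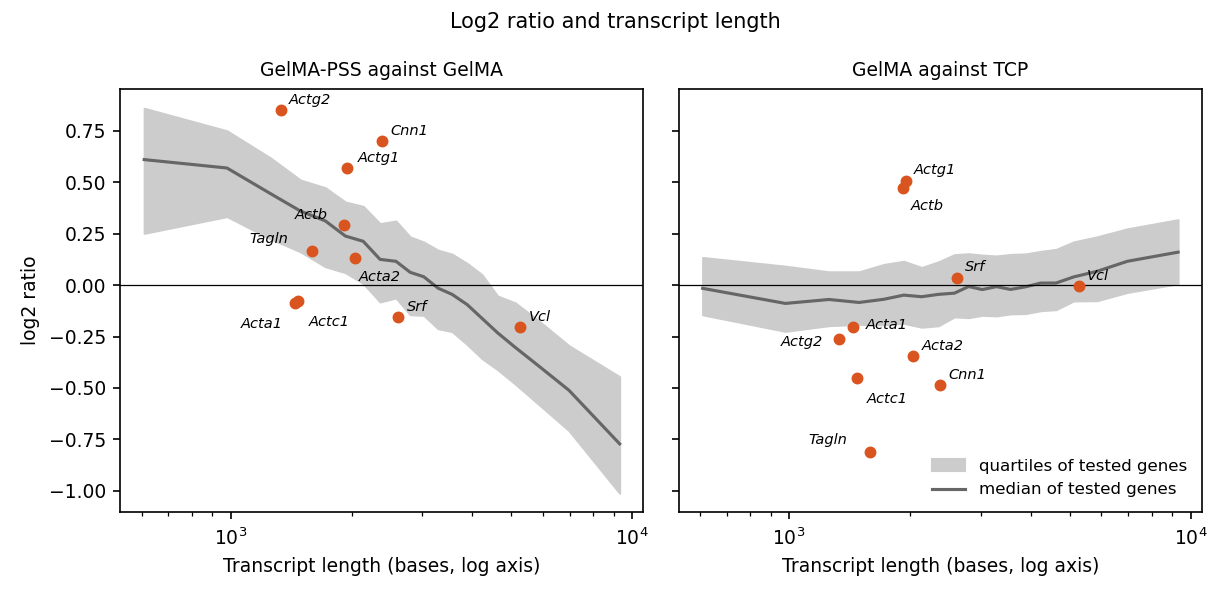
The log2 ratio of the 10 genes (points) is plotted against transcript length in bases (log axis), with the median (line) and quartiles (grey) of the tested genes in 20 length classes, for GelMA-PSS against GelMA and GelMA against TCP. In the first panel Vcl lies near the line, Acta1 and Actc1 lie below it and Actg1, Actg2 and Cnn1 above it, and in the second Tagln is the lowest point.

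Srf encodes the transcription factor itself and lies at chr17:46548329-46556175 with 7 exons. It had 63.2 CPM (61.8 to 64.6) in TCP, 64.8 (63.2 to 66.5) in GelMA and 58.2 (57.1 to 59.3) in GelMA-PSS. The TCP and GelMA intervals overlapped, and GelMA-PSS was slightly lower. Its log2 ratio to GelMA was -0.15 and to TCP -0.12, and -0.05 and 0.01 after the correction. Among the members Srf differed least between the libraries, together with Vcl.

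The partners of SRF did not move as a block. Of 14 partners, 13 were tested, with Myocd below the limit. The coactivators Mrtfa and Mrtfb (listed as Mkl1 and Mkl2), which are the ones bound by free actin, had 68.0 and 42.2 CPM in TCP, 72.9 and 50.1 in GelMA, and 55.0 and 27.2 in GelMA-PSS. Their log2 ratio of GelMA-PSS against GelMA was -0.40 and -0.86, and -0.16 and -0.48 after the correction. Scai, which represses the complex of SRF and Mrtfa, had a ratio of -0.93 on a transcript of 10709 bases, and -0.26 after the correction. Mical2, an oxidase of nuclear actin, had -0.47 and -0.39.

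Of the ternary complex factors, which bring SRF under the control of MAP kinases, Elk4 had 11.4 CPM in TCP, 17.6 in GelMA and 6.43 in GelMA-PSS. Its log2 ratio of -1.32 between the hydrogels was the only one past 2-fold among the partners there, and it was -1.15 after the correction. Elk3 was lowest in TCP, with 39.0, 58.7 and 66.7 CPM, and Elk1 was even, with 35.7, 35.6 and 30.9 CPM.

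The LIM proteins among the partners of SRF split by isoform. Csrp1 had 144 CPM in TCP, 186 in GelMA and 337 in GelMA-PSS, and Csrp2 had 29.6, 39.0 and 71.8, with log2 ratios of GelMA-PSS against TCP of 1.22 and 1.25 (1.07 and 0.75 after the correction). Csrp3, the muscle form, had 121 CPM in TCP, 71.7 in GelMA and 76.6 in GelMA-PSS, with log2 ratios of -0.74 for GelMA and -0.65 for GelMA-PSS against TCP. After the correction the latter was -1.11, past 2-fold, and the ratio between the hydrogels turned from 0.10 to -0.45. Fhl1 and Fhl2 were higher in GelMA-PSS than in GelMA, with log2 ratios of 0.69 and 0.53 (0.605 and 0.213 after the correction). Abra, a muscle activator of SRF, had 23.7, 13.4 and 9.66 CPM, and its log2 ratio of GelMA-PSS against TCP was -1.21.

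A list of 36 other cytoskeletal targets of SRF, of which 34 were tested, showed no common direction. Its median log2 ratio to GelMA was 0.06 in GelMA-PSS, and to TCP it was -0.08 in GelMA-PSS and -0.12 in GelMA. The list shares Tpm1 and Tpm2 with the thin filament list below, and Dstn, Wdr1 and Enah with the turnover list. Tln1, Actn1, Zyx and Flna are also among the vinculin partners, so the lists are not independent. Between GelMA-PSS and TCP, 2 of 34 were higher and 2 lower by 2-fold, where 3.72% and 3.13% of the tested genes were. Tagln2 and Tpm4, non-muscle relatives of Tagln and of muscle tropomyosin, were on the high side with 160 and 350 CPM in TCP, 229 and 490 in GelMA, and 381 and 782 in GelMA-PSS. Their log2 ratios against TCP of 1.24 and 1.16 became 1.05 and 0.96 after the correction, so that of Tpm4 no longer passed 2-fold. Mylk, which encodes myosin light chain kinase, had 15.6, 11.6 and 4.90 CPM and a log2 ratio of -1.50, or -1.02 after the correction. The 10 immediate early targets, which SRF induces within minutes of serum, had medians of -0.06, 0.11 and 0.12 in the same order of comparisons, and Egr3 was past 2-fold between the hydrogels, with 46.3 CPM in GelMA and 22.5 in GelMA-PSS. Its log2 ratio of -1.01 became -0.89 after the correction, which is no longer past 2-fold.

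The genes that build the thin filament around sarcomeric actin followed Acta1 and Actc1 in being lower on GelMA than on TCP. Of 22 partners of the sarcomeric thin filament, 21 were tested (Nebl was below the limit), and 21 of 21 had a log2 ratio below 0 for GelMA against TCP, where 51.7% of the tested genes did. Their median was -0.54, that of all tested genes -0.01, and 0 of 21 passed 2-fold. For GelMA-PSS against TCP, 19 of 21 were below 0 (47.2% of the tested genes), with a median of -0.55 and 4 of 21 lower by 2-fold (3.13% of the tested genes). Actn2, the α-actinin of the Z-disc, had 358 CPM in TCP, 217 in GelMA and 109 in GelMA-PSS, with a log2 ratio of -1.71 against TCP and a corrected one of -1.68. Xirp1, an actin-binding protein of the growing myofibril, had 146, 105 and 58.9 CPM. Its log2 ratio against TCP of -1.30 became -0.94 after the correction, which is no longer past 2-fold. On corrected values 5 of 21 of the list were lower by 2-fold in GelMA-PSS than in TCP.

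Neb encodes nebulin, which spans the thin filament, and had 1897 CPM in TCP, 1635 in GelMA and 375 in GelMA-PSS. Its log2 ratio between the hydrogels was -2.12 on a transcript of 22489 bases, and -0.69 after the correction. Against TCP it was -2.34 in GelMA-PSS, and -1.37 after the correction, still past 2-fold. Between the hydrogels the list as a whole had a median of 0.05 as measured and -0.30 after the correction, so its direction there depends on the correction, as it does in size for Acta1 and Actc1.

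Genes that turn actin filaments over went the other way, with Capzb on both lists. All 30 of the list were tested, and 24 of 30 had their highest level in GelMA-PSS, where 45.3% of the tested genes were. The median of GelMA-PSS against GelMA was 0.34 and against TCP 0.39, and 0.13 and 0.23 after the correction. The thymosins, which hold actin monomers, included 2 of the 3 genes past 2-fold against TCP. Tmsb4x had 957.4 CPM in TCP, 955 in GelMA and 2287 in GelMA-PSS, and Tmsb10 had 1448, 1917 and 2924. Arpc1b, a subunit of the Arp2/3 complex that starts branched filaments, had 194, 264 and 411 CPM. The corrected log2 ratios against TCP were 0.75, 0.48 and 0.84, so 0 of 30 passed 2-fold after the correction. Cofilin (Cfl1), which severs filaments and was named after its values were seen, had 586, 670 and 1048 CPM. Its log2 ratio between the hydrogels was 0.645, and 0.21 after the correction.

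Genes for the folding and modification of actin, mainly the CCT chaperonin and prefoldin, had their highest level in GelMA-PSS in 15 of 16 cases, where 45.3% of the tested genes did. Their median was 0.40 against GelMA and 0.37 against TCP, and 0.16 and 0.15 after the correction. Pfdn1, a prefoldin subunit, had 60.8 CPM in TCP, 48.6 in GelMA and 100.6 in GelMA-PSS, and its log2 ratio of 1.03 between the hydrogels was 0.54 after the correction. The median transcript length of the turnover and folding lists was 2306 and 1968 bases, and tested genes around 2356 and 1931 bases had median log2 ratios of 0.13 and 0.24 between the hydrogels.

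Partners of vinculin had their lowest level in GelMA-PSS in 13 of 17 cases, where 39.3% of the tested genes were. Their median was -0.30 for GelMA-PSS against GelMA and -0.27 against TCP, and -0.04 and -0.14 after the correction. Tln2, a talin that activates integrins, had 77.4 CPM in TCP, 99.2 in GelMA and 45.4 in GelMA-PSS, and its ratio of -1.11 between the hydrogels was -0.40 after the correction.

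**Figure D5:**
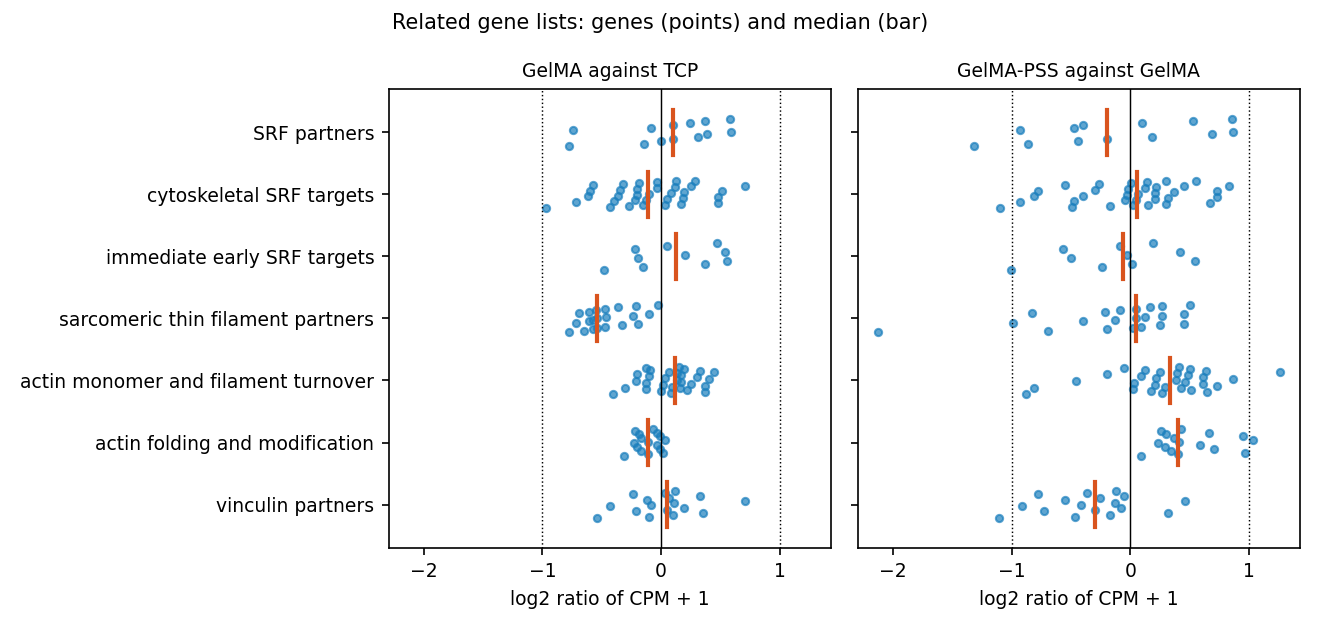
Each point is a tested gene of 1 of the 7 lists (rows), placed by its log2 ratio of CPM + 1 for GelMA against TCP and GelMA-PSS against GelMA, with the median of the list as a bar and 2-fold as dotted lines. The thin filament partners lie at or left of 0 in the first panel (median -0.54), and the turnover and folding lists lie mostly to the right in the second (medians 0.34 and 0.40).

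The genes with the most similar pattern were sought among the 8764 genes that reached 10 CPM in every library, by the distance in the plane of the log2 ratios of GelMA against TCP and of GelMA-PSS against GelMA. They were Eif2ak1, Gid4 and Vps53 for Acta1, Creld1, Usp16 and Zfp692 for Acta2, Tpx2, Angptl2 and Hmmr for Actb, and Elavl1, Helb and Dync1li2 for Srf. The distances were between 0.00418 (Eif2ak1) and 0.0321 (Hmmr) log2 units. With 3 libraries and many genes, such near matches are common, and they are given as a description.

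Markers of cells that a c2c12 culture should not hold were low. The 4 macrophage markers summed to 1.75 CPM in TCP, 1.86 in GelMA and 1.62 in GelMA-PSS, and Ptprc was at 0 counts in TCP and GelMA. The 3 endothelial markers summed to 0.115, 0.264 and 0.282 CPM and the 3 adipocyte markers to 0.0986, 0.0440 and 0.0221. The 4 myoblast markers summed to 788, 744 and 833 CPM, and 5 fibroblast markers to 331, 378 and 368, mostly from Dcn and Col1a1.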

How the data were processed

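The deposited files hold raw, whole-number counts for each gene symbol in 3 libraries, 1 per substrate. The submitters' processing notes name TopHat, edgeR and the builds mm10 and hg19 without their roles. The counting tool and annotation are not given in the sources used here, and the FPKM values of the study's methods were not used. Each file has 23282 lines, and lines sharing a symbol were summed, which left 23238 symbols. Totals were 119799095 (TCP), 87071144 (GelMA) and 192171443 (GelMA-PSS), so that 3 counts equal 0.0246, 0.0330 and 0.0166 CPM.

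TMM factors (edgeR 4.0.16, R 4.3.3) were 1.02, 1.04 and 0.943. Ratios were taken on log2(CPM + 1) for genes that reached 1 CPM in any library. Lengths and base composition were read from GENCODE vM21 on GRCm38, using the transcript of the longest coding sequence, for 13063 of 13169 tested genes. The correction subtracted loess fits (span 0.3, statsmodels 0.14.6) for length and then GC content. Intervals used scipy 1.17.1. The scripts were tested on simulated data.

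The 10 genes, the 7 lists and the marker genes were chosen with earlier results of these data known. The text names all 10, every SRF partner that reached 1 CPM, up to 3 genes per list past 2-fold in any comparison with the largest ratio of GelMA-PSS against TCP, and the 3 genes most like Acta1, Acta2, Actb and Srf, except 1 gene not reported here. The 9 alternatives for the counts of members covered the threshold, scaling, pseudocount, filter, length correction and TPM.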

Additional observations from a re-analysis of the deposited data

How the results depend on the processing

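No paired analysis was possible because each substrate has 1 library, and for the same reason no library could be left out and no count test was run. The number of members past 2-fold was 0 for GelMA-PSS against GelMA, and became 2 with a threshold of 1.5-fold and 1 (Cnn1) with a pseudocount of 0.1 CPM. For GelMA-PSS against TCP it was 1 (Actg1), 4 with 1.5-fold, 0 with total counts only and 0 after the length and GC correction, while TPM without factors also gave 1, which was Tagln on the low side at -1.06. For GelMA against TCP it was 0, and 1 with 1.5-fold or with the smaller pseudocount. In counts not divided by length, sarcomeric actin took 62.0%, 56.5% and 49.5% and smooth muscle actin 22.6%, 19.6% and 20.1% of the actin genes in TCP, GelMA and GelMA-PSS, since Acta2 has a longer transcript than Acta1 and Actc1. By TPM the median log2 ratio of all genes in GelMA-PSS was -0.37 relative to GelMA and -0.32 relative to TCP, where it was 0.03 and 0.04 with TMM factors. Over the settings tried the sign changed for 4 members in GelMA-PSS against GelMA (Acta2, Actb, Tagln, Vcl), for 2 against TCP (Vcl, Srf) and for 1 in GelMA against TCP (Vcl). Among all tested genes, 233 were higher and 307 lower by 2-fold in GelMA-PSS than in GelMA, which became 120 and 506 with total counts only, 42 and 1040 with TPM, 87 and 157 after the correction, 1448 and 1423 with 1.5-fold, and 356 and 525 with the smaller pseudocount. Against TCP, 490 and 412 became 338 and 576, 149 and 1051, 264 and 314, 1738 and 1509, and 698 and 630 under the same settings. For GelMA against TCP, 93 and 39 became 461 and 279 with 1.5-fold and 213 and 106 with the smaller pseudocount. Other than by these constructions, the cause was not tested.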
